A study of Mus musculus with 28 samples.

Results

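The genes described here are 10 genes of V(D)J recombination and of the end joining that completes it: Rag1, Rag2, Dntt, Xrcc5, Xrcc6, Prkdc, Dclre1c, Lig4, Xrcc4 and Nhej1. They were chosen by name for their role, with earlier results of these data known, and each was found once among the 55450 genes of the deposited expression table. All 10 passed the filter on low values, a mean of at least 0.1 TPM over the libraries, where TPM is a transcript's length-corrected share of its library, as did 16415 genes of the table. They were followed in the C10 line of mouse Pre-B cells, derived from HAFTL cells, which carries a CEBPalpha-ER transgene, in which rat C/EBPα fused to the hormone-binding domain of the estrogen receptor enters the nucleus when the ligand is added. Cells were taken uninduced (0h) or 1h, 12h and 48h after 100 nM β-estradiol was given together with the cytokines IL-3 and CSF-1, and every group, 0h included, carries the transgene. RNA was sequenced in 3 biological replicates per time point (12 libraries), and promoter capture Hi-C (PCHi-C) lists were deposited as 1 merged list per time point. All samples come from 1 cell line, no group received β-estradiol without the transgene, and nothing in the labels says that the replicates were separate inductions, so p-values measure only the spread between these libraries.

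V(D)J recombination assembles the antigen receptor genes of B and T cells. The RAG1 and RAG2 proteins form the recombinase that cuts DNA beside the receptor segments, and terminal transferase, the product of Dntt, adds bases without a template to the opened ends; these genes are active in developing lymphocytes and silent in macrophages. The ends are joined by the general nonhomologous end joining machinery of all cells: the Ku70 and Ku80 pair (Xrcc6, Xrcc5) holds the ends, DNA-PKcs (Prkdc) activates Artemis (Dclre1c), which opens the RAG-made hairpins, and DNA ligase IV (Lig4) seals the break with XRCC4 and XLF (Nhej1).

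The promoters of the 3 lymphoid genes and of Dclre1c, the member that was higher at every time, are shown because the induced protein is a DNA-binding factor and because these promoters are also the capture points of the contact lists. Each run is the 250 bases before the RefSeq start site (GRCm38.p6), 5′ to 3′ on the gene's strand. Capitals mark matches on either strand to 9 motifs searched: the C/EBP site TTGCNNAA, the TATA box TATAAA, the CCAAT box, the GC box GGGCGG, the E-boxes CACCTG and CAGCTG, the forkhead site TGTTTAC, the Ikaros core TGGGAA and the ETS core GAGGAA.
Rag1 (chr2:101649533-101649782, minus strand): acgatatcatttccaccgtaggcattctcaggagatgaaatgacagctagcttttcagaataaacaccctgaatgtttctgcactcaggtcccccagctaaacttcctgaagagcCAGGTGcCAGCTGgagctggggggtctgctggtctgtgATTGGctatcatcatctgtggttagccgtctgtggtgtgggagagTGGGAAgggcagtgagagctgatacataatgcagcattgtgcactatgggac
Rag2 (chr2:101624462-101624711, plus strand): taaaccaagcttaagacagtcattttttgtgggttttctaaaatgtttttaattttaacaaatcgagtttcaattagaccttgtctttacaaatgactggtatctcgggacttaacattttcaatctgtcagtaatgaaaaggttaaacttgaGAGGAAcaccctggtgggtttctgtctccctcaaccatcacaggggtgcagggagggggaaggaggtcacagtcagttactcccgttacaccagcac
Dntt (chr19:41029025-41029274, plus strand): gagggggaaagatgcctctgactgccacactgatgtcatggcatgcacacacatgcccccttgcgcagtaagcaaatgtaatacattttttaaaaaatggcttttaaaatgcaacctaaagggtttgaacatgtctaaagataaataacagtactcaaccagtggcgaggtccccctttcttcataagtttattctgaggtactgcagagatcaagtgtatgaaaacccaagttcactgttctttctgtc
Dclre1c (chr2:3423881-3424130, plus strand): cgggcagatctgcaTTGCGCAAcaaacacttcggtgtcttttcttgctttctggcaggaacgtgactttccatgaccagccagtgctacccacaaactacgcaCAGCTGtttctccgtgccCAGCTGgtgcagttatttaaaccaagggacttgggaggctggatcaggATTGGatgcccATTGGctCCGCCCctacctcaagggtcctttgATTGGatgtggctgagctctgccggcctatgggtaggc

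The Dclre1c promoter held TTGCGCAA at position -236, a palindrome that matches the C/EBP motif on both strands, whereas no C/EBP match lay in the 250 bases before Rag1, Rag2 or Dntt. Of all 32851 RefSeq promoters of the same length, 9.56% held this motif. Among the 9 members with a sequence in the RefSeq table (Prkdc was not among them), the other match was in Xrcc5, TTGCCTAA at position -32, so 1 promoter of each direction of change carried it. The Rag1 promoter held both E-boxes at positions -135 and -128 (CACCTG in 17.2% and CAGCTG in 13% of promoters), an inverted CCAAT box at -97 (33.8%) and an Ikaros core at -52 (21.6%). The Rag2 promoter held only an ETS core, at -97 (23.3%). The Dntt promoter held none of the 9 motifs, and none of the 4 promoters held a TATA box (12.4%) or the forkhead site (3.17%). Dclre1c also held 3 inverted CCAAT boxes, 2 CAGCTG E-boxes and a GC box (32.7%). The promoters of Rag2 and Dntt had a GC content of 41.2% and 41.6%, below the lower quartile of all promoters (45.2%), and those of Lig4, Xrcc4 and Xrcc6 lay between 65.2% and 70%, above the upper quartile (61.2%). A match describes the letters only, and binding was not measured here.

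The libraries moved from a Pre-B to a macrophage profile. The summed TPM of 10 Pre-B cell markers was 293 to 324 at 0h and 29.0 to 40.7 at 48h, while that of 10 macrophage markers was 12.5 to 13.1 and 1010 to 1186. Most of the macrophage sum at 48h was Mmp12 (409 to 575 TPM) and Ctsc (329 to 391 TPM), and Adgre1 was at most 0.29 TPM. The summed TPM of 10 neutrophil markers moved too, from at most 0.54 at 0h to 17.7 to 23.9 at 12h and 32.8 to 45.1 at 48h. Elane, Ltf, Mpo and S100a9 were listed at 0 in every 48h library. Most of the 48h sum was Mmp8 (28.2 to 43.3 TPM), which the study counts among its macrophage-specific genes. Camp stood at 6.61 to 10.83 TPM at 12h and 0.18 to 0.5 TPM at 48h. The part of these markers in the changes was not tested. The T cell markers summed to at most 3.16 TPM in any library. In bulk RNA, fewer cells of a type and less RNA per cell cannot be told apart. In each library 70.3% to 82.9% of all TPM came from 2 genes of the ribosomal RNA locus, and the median gene moved by 0.59 (1h), 0.34 (12h) and -0.18 (48h) on the log2 scale against 0h. After median-of-ratios scaling these medians were 0.02, 0.07 and 0.08, and values on that scale are given for the 10 genes and for the counts of the pathway lists where they change a call, a count or a direction. TPM keep no read depth, and the numbers of reads sequenced, which the study gives, were not used here.

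Rag1 and Rag2 fell within the 1st hour and were at or near 0 from 12h on. The 0h libraries held Rag1 at 1.88, 1.68 and 1.5 TPM, those of 1h at 0.07, 0.06 and 0.04 TPM and those of 12h at 0, 0.02 and 0 TPM, and every 48h library listed it at 0. The 0h libraries did not overlap those of any later time. The mean fell from 1.69 ± 0.19 TPM to 0.0567 ± 0.0153 TPM (SD, n = 3) by 1h, 29.7-fold, a log2 fold change on the TPM + 0.1 scale of -3.51 ± 0.32 (SE; limma, adjusted p = 3.86e-05). Rag2 stood at 3.23, 1.64 and 1.24 TPM at 0h, at 0.19, 0 and 0.11 TPM at 1h and at 0.07, 0 and 0.04 TPM at 48h, and was listed at 0 in every 12h library. Its 0h libraries were likewise all above the later ones, and its log2 fold change was -3.44 ± 0.48 at 1h (adjusted p = 0.000651) and -3.89 ± 0.48 at 48h (adjusted p = 4.36e-05, limma). Rag1 passed the test at 12h (adjusted p = 3.74e-06) and 48h (9.86e-07) and Rag2 at 12h (5.23e-05), but no fold is given against groups listed at 0. Neither gene passed the test between 1h and 12h (Rag1 adjusted p = 0.242, Rag2 0.225) or between 12h and 48h (0.874 and 0.536). These steps lie at or under the pseudocount of 0.1, so the fit says little about them; every 12h library of Rag1 (at most 0.02 TPM) lay below every 1h library (at least 0.04 TPM), while those of Rag2 overlapped. The fold sizes depend on the pseudocount: the Rag1 value at 1h was -1.34 with a pseudocount of 1 and -4.69 with 0.01, past the threshold with both.

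Dntt did not fall with the Rag genes at 1h and was lost later. The 0h libraries held 0.84, 0.13 and 0.42 TPM, the 1h libraries 0.51, 0.61 and 0.14 TPM and the 12h libraries 0, 0 and 0.11 TPM, and every 48h library listed it at 0. The 0h and 1h libraries overlapped, and both lay above the 12h and 48h libraries. At 1h the log2 fold change was -0.04 with a 95% interval from -1.32 to 1.25 (adjusted p = 0.982, limma), so the 3 libraries a group bound this change only loosely. At 12h Dntt fell (log2 fold change -1.91 ± 0.59, adjusted p = 0.0291), a call that was lost without 0h replicate 1 (adjusted p = 0.109), 0h replicate 3 (0.077), 12h replicate 1 (0.0835) or 12h replicate 2 (0.0845), with a pseudocount of 1 (0.0597) and in a fit of the 6 libraries compared (0.0744). At 48h the adjusted p was 0.00798. Whether the change at 1h differed between Dntt and the Rag genes was not tested.

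**Figure D1:**
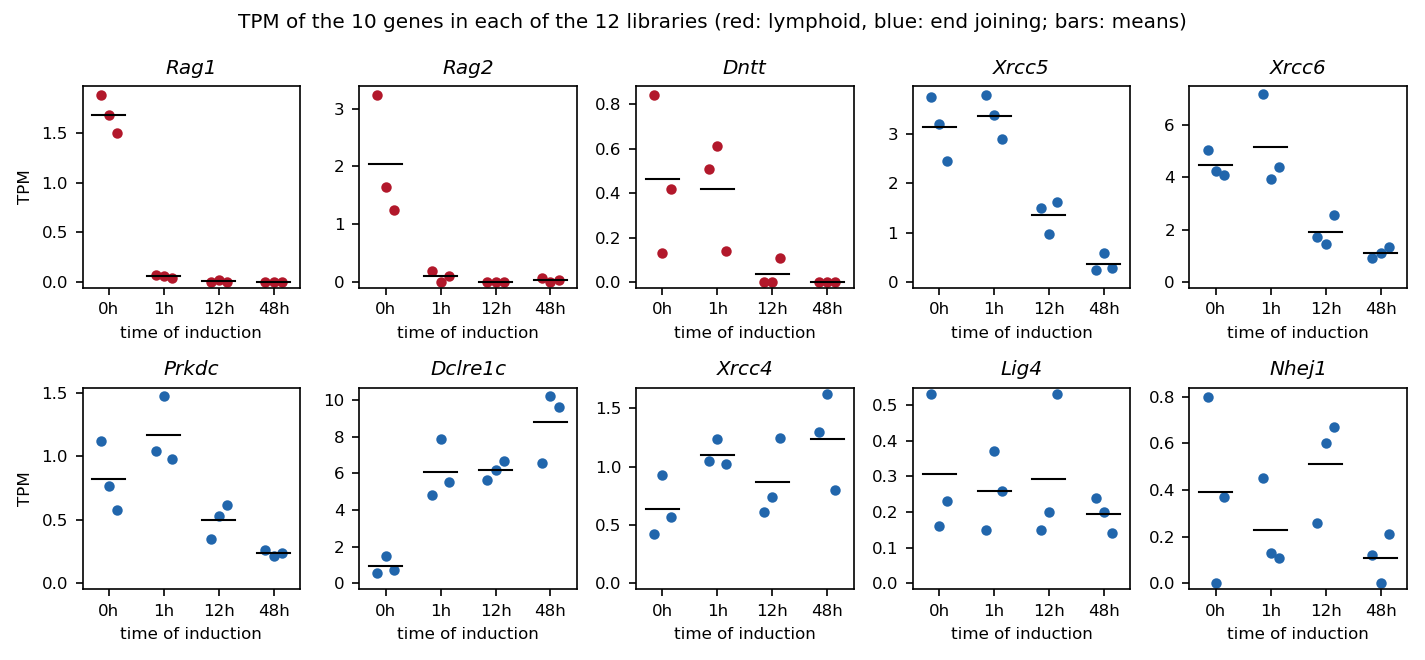
TPM of the 10 genes (y axis, linear, a separate scale per gene) in the 12 libraries by time after induction; points are libraries and bars are means of 3. Rag1 and Rag2 drop between 0h and 1h, Dntt, Xrcc5, Xrcc6 and Prkdc between 1h and 12h, Dclre1c rises from at most 1.5 to at least 4.83 TPM within 1h, and Lig4 and Nhej1 overlap between 0h and all later times.

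The genes of both Ku subunits did not pass the test at 1h and were lower at 12h and 48h. Xrcc5 (Ku80) had 3.74, 3.2 and 2.45 TPM in the 0h libraries, 3.79, 3.38 and 2.9 TPM after 1h, 1.5, 0.98 and 1.61 TPM after 12h and 0.24, 0.58 and 0.29 TPM after 48h. The 0h and 1h libraries overlapped, and each later group lay wholly below the one before. The log2 fold change against 0h was -1.15 ± 0.30 at 12h (adjusted p = 0.0136) and -2.83 ± 0.30 at 48h (adjusted p = 1.39e-05, limma), 8.46-fold between the means. Without 12h replicate 2 the 12h call was lost (log2 fold change -0.95, adjusted p = 0.056). Xrcc6 (Ku70) had 5.04, 4.24 and 4.1 TPM in the 0h libraries, 7.17, 3.95 and 4.39 TPM after 1h, 1.72, 1.43 and 2.56 TPM after 12h and 0.93, 1.1 and 1.34 TPM after 48h. Its 0h and 1h libraries overlapped too, and from 12h on it lay below them, by -1.22 ± 0.27 at 12h (adjusted p = 0.00598) and -1.91 ± 0.27 at 48h (adjusted p = 0.000146). Xrcc5 fell again from 12h to 48h (-1.68 ± 0.30, adjusted p = 0.0012), whereas for Xrcc6 that step did not pass the test (-0.69 ± 0.27, adjusted p = 0.0722) and was 0.02 after median-of-ratios scaling. Xrcc6 shares 344 exonic bases with Desi1 on the other strand, and the library kit does not mark strand. Desi1 itself stood at 2.85 to 4.01 TPM at 0h and 1.31 to 2.1 TPM at 48h.

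Prkdc, the kinase that Ku recruits, had 1.12, 0.77 and 0.58 TPM in the 0h libraries, 1.04, 1.48 and 0.98 TPM after 1h, 0.35, 0.53 and 0.62 TPM after 12h and 0.26, 0.22 and 0.24 TPM after 48h. The 12h libraries overlapped those of 0h and the 48h libraries lay below both. The log2 fold change at 12h, -0.61 ± 0.30, did not pass the test on the deposited scale (adjusted p = 0.153) but did after median-of-ratios scaling (-0.89, adjusted p = 0.0219), and at 48h Prkdc had fallen by 1.40 (SE 0.30, adjusted p = 0.00255), 3.43-fold between the means. Prkdc lies head to head with Mcm4, a subunit of the replicative helicase, which stood at 11.3 to 13.5 TPM at 0h and 0.3 to 0.75 TPM at 48h.

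Dclre1c was higher at every later time. This gene, which encodes the hairpin-opening nuclease Artemis, had 0.59, 1.5 and 0.74 TPM in the 0h libraries, 4.83, 7.88 and 5.55 TPM after 1h, 5.64, 6.2 and 6.68 TPM after 12h and 6.57, 10.21 and 9.62 TPM after 48h. Every induced library lay above every 0h library, and the later times overlapped one another. It rose by 2.63 ± 0.31 on the log2 scale at 1h (adjusted p = 0.00023), 2.68 ± 0.31 at 12h (adjusted p = 7.06e-05) and 3.16 ± 0.31 at 48h (adjusted p = 7.36e-06, limma), 6.45-fold, 6.54-fold and 9.33-fold between the means. The step from 12h to 48h was 0.48 ± 0.31 (adjusted p = 0.258) and passed the test only after median-of-ratios scaling (1.22, adjusted p = 0.0137). Dclre1c shares 357 exonic bases, 3.83% of its exonic length, with Suv39h2 on the other strand. Suv39h2, a histone methyltransferase gene, stood at 0.85 to 1.45 TPM at 0h and 0.38 to 0.98 TPM at 48h, below Dclre1c in every induced library.

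For the 3 genes of the ligase complex no change against 0h passed the test (limma, adjusted p, deposited scale), and at an unadjusted p under 0.05 there was 1, Xrcc4 at 48h. Xrcc4, the scaffold of ligase IV, had 0.42, 0.93 and 0.57 TPM in the 0h libraries, 1.05, 1.24 and 1.02 TPM after 1h, 0.61, 0.74 and 1.25 TPM after 12h and 1.3, 1.62 and 0.8 TPM after 48h. The 1h libraries all lay above 0h, and those of 12h and 48h overlapped it. By 48h it had moved by 0.86 ± 0.35 (log2; adjusted p = 0.0645) and passed after median-of-ratios scaling (1.26, adjusted p = 0.0107) and without 0h replicate 2 (1.13, 0.0302) or 48h replicate 3 (1.13, 0.0287). Its step from 12h to 48h passed only after median-of-ratios scaling (1.17, adjusted p = 0.0312). Lig4 ranged from 0.14 to 0.53 TPM over all 12 libraries, with a log2 fold change at 48h of -0.38 and a 95% interval from -1.39 to 0.63 (adjusted p = 0.546). Nhej1 ranged from 0 to 0.8 TPM, with 0h libraries of 0.8, 0 and 0.37 TPM. Its interval at 48h ran from -2.54 to 0.79, so these libraries bound neither gene closely. Without 0h replicate 2, the library that listed Nhej1 at 0, the value was -1.78 (adjusted p = 0.0462).

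Counted over all 10 genes, 2 were lower and 1 higher at 1h, where 1.41% of all genes tested were lower and 24.1% higher. At 12h 5 were lower and 1 higher (7.82% and 22.3% of all genes), and at 48h 6 were lower and 1 higher (27.2% and 15.9%). After median-of-ratios scaling 2 were lower and 1 higher at 1h (4.87% and 5.43% of all genes), 6 and 1 at 12h (14.4% and 16%) and 6 and 2 at 48h (21.9% and 24.6%). Split by role, all 3 lymphoid genes and 3 of the 7 end-joining genes were lower at 48h, and the higher gene was Dclre1c, or Dclre1c and Xrcc4 after median-of-ratios scaling. The median log2 fold change at 48h was -3.89 for the lymphoid genes, -0.88 for the end-joining genes and -0.18 for all genes tested. The lymphoid median is the value of Rag2, which stood at no more than 0.07 TPM at 48h, so the pseudocount sets its size. The end-joining median is the value of Nhej1, which did not pass the test (adjusted p = 0.389, limma). These medians therefore do not measure how far the roles differ. Without 12h replicate 2 the members lower at 12h numbered 3. Between neighbouring times, 4 genes (Dntt, Xrcc5, Xrcc6 and Prkdc) were lower at 12h than at 1h, against 15% of all genes (6.98% were higher), but 2 (Xrcc5 and Xrcc6) without 1h replicate 1, 1h replicate 2 or 12h replicate 1 and 1 (Xrcc6) without 12h replicate 2. After median-of-ratios scaling it was 2 (Xrcc5 and Xrcc6), against 8.79% of all genes (11.3% were higher). Only Xrcc5 was lower at 48h than at 12h, against 31.7% (4.1% were higher), joined by Prkdc without 12h replicate 1 and by Xrcc6 without 12h replicate 2. After median-of-ratios scaling Xrcc5 was lower and Dclre1c and Xrcc4 higher in that step (11.9% and 10.6% of all genes). The comparisons with 0h share the 0h libraries and are not independent. The summed TPM of the 7 end-joining genes was 9.04 to 12.2 at 0h and 9.66 to 13.9 at 48h, ranges that overlapped, with Dclre1c at 6.57 to 10.2 of the 48h sums.

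**Figure D2:**
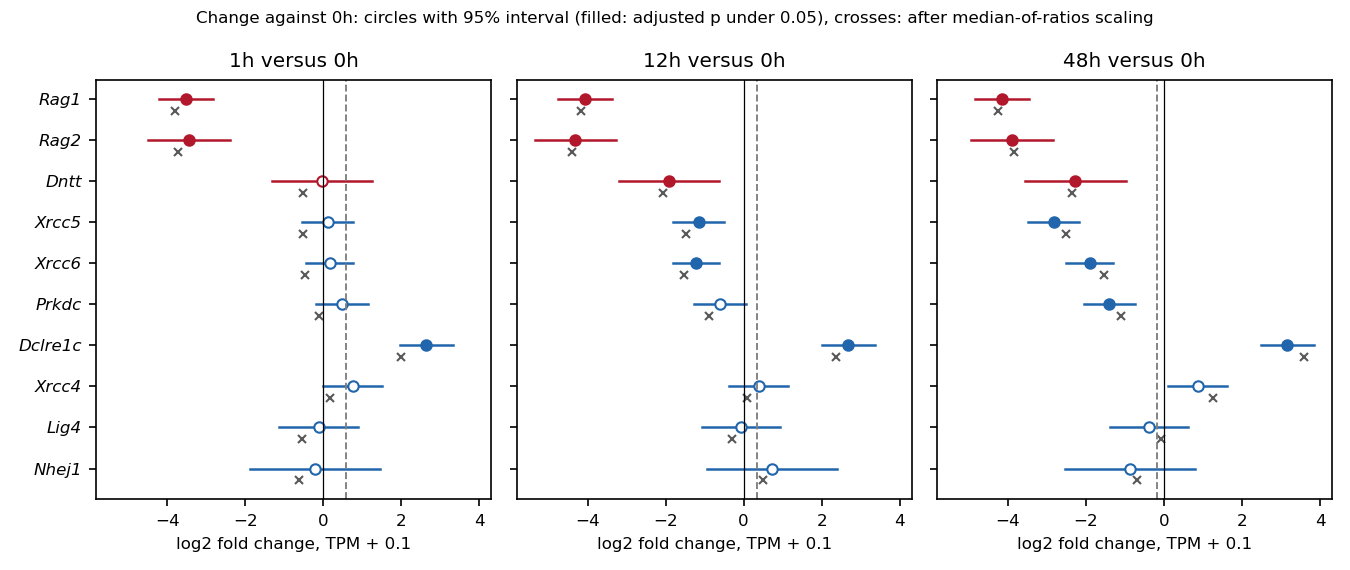
Log2 fold change of each gene against 0h on the TPM + 0.1 scale (x axis) at 1h, 12h and 48h: circles with 95% intervals from limma, filled where adjusted p is under 0.05, red for lymphoid and blue for end-joining genes; crosses are values after median-of-ratios scaling and the dashed line is the median of all genes. Rag1 and Rag2 lie near -3.5 already at 1h and Dclre1c lies above 2.6 at each time; where a group is listed at 0 (Rag1 and Dntt at 48h, Rag2 at 12h) the position is set by the pseudocount.

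The rest of the pathway fell mostly at 12h and 48h. Of 55 tested genes in the other lists (end processing, break sensing, alternative end joining, RAG cofactors and regulators of Rag transcription), 6 were lower and 14 higher at 1h, which is 10.9% and 25.5% of them against 1.41% and 24.1% of all genes, so the share higher was near that of all genes. All 6 lower at 1h were regulators of Rag transcription, and each of the other lists had 0 lower. After median-of-ratios scaling 8 regulators and 1 break-sensing gene were lower at 1h. The 14 became 9 without 0h replicate 2, 1h replicate 1 or 1h replicate 2 and 8 without 0h replicate 3. At 12h 25 were lower and 6 higher (45.5% and 10.9% against 7.82% and 22.3%), the latter 3 without 0h replicate 3, and at 48h 42 were lower and 3 higher (76.4% and 5.45% against 27.2% and 15.9%). After median-of-ratios scaling these counts were 9 and 3, 33 and 3, and 37 and 4, so the split at 1h turned with the scale, on which 4.87% and 5.43%, 14.4% and 16%, and 21.9% and 24.6% of all genes were lower and higher. At 48h the 7 alternative end joining genes were all lower on the deposited and the median-of-ratios scale (6 after rescaling without the 20 most abundant genes), with a median log2 fold change of -3.11. Lig1, the replicative DNA ligase, went from 15.2 to 17.7 TPM at 0h to at most 0.12 TPM (log2 fold change -7.01 ± 0.35, adjusted p = 3.54e-08), Polq, the polymerase of microhomology joining, from 1.21 to 1.87 TPM to at most 0.04 TPM (-3.66 ± 0.29, adjusted p = 1.22e-06), and the flap nuclease gene Fen1 from 5.91 to 6.15 TPM to 0.48 to 0.51 TPM (-3.38 ± 0.16, adjusted p = 2.28e-08).

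Of 13 tested break-sensing genes, 12 were lower at 48h, against 27.2% of all genes (9 after median-of-ratios scaling, against 21.9%). H2afx, whose histone product is phosphorylated around breaks, stood at 41.1 to 50.3 TPM at 0h and 0.19 to 0.83 TPM at 48h (-6.44 ± 0.37, adjusted p = 1.11e-07). Rif1, which protects ends from resection, changed by -2.91 ± 0.27 (adjusted p = 5.17e-06), and Nbn, a subunit of the MRN complex, by -2.27 ± 0.27 (adjusted p = 3.85e-05). Among 11 end-processing genes, 5 were lower and 1 higher (27.2% and 15.9% of all genes): the phosphodiesterase genes Tdp1 (-2.46 ± 0.28) and Tdp2 (-1.67 ± 0.26) fell, and Parp3, an ADP-ribosyltransferase that acts at breaks, went from 1.04 to 2.54 TPM to 4.59 to 5.38 TPM (1.44 ± 0.29, adjusted p = 0.00151). Of 7 RAG cofactor and turnover genes, 6 were lower, again against 27.2% of all genes, and after median-of-ratios scaling the other, Cul4a, was higher (0.73, adjusted p = 0.00914). Hmgb1 and Hmgb2, DNA-bending proteins that assist RAG cutting, changed by -2.84 and -4.08, and Skp2, the ubiquitin ligase subunit that degrades RAG2 in dividing cells, fell by 2.71.

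Many genes of these lists serve DNA replication too, and proliferation markers moved with them. The summed TPM of 12 proliferation markers was 226 to 278 uninduced, 321 to 373 after 1h, 61.5 to 74.97 after 12h and 8.54 to 9.33 after 48h, when all 12 were lower, against 27.2% of all genes. Among them were Cdk1 (-6.98), Ccna2 (-6.83) and Ccnb1 (-6.63). These 3 stood at no more than 0.32, 0.04 and 0.09 TPM at 48h, so the pseudocount sets the size of their falls. After rescaling without the 20 most abundant genes the values were -9.42, -8.76 and -8.33. Xrcc5, Xrcc6, Prkdc and Dntt did not pass the test at 1h and were lower from 12h or 48h on, whereas Rag1 and Rag2 were already low at 1h. At that time all 12 proliferation markers lay above 0h on the deposited scale (1 past the test), but after median-of-ratios scaling 10 of the 12 lay below it (0 past the test). The part of proliferation in these changes was not tested.

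Regulators of Rag transcription did not move as one at 1h, where 6 of 17 were lower and 7 higher (1.41% and 24.1% of all genes) and 8 and 3 after median-of-ratios scaling (4.87% and 5.43%). The 6 lower on the deposited scale were Foxo1, Gfi1b, Bcl11a (-1.33), Irf8 (-1.23), Ikzf1 (-0.83) and Pax5 (-0.81). The following 4 were picked after their values were seen. Foxo1, an activator of the Rag genes in B cell precursors, stood at 2.8 to 4.15 TPM at 0h and 0.57 to 0.82 TPM at 1h (-2.03 ± 0.23, adjusted p = 0.000207), and Gfi1b, a repressor of the Rag genes, at 3.66 to 4.81 TPM and 0.42 to 0.43 TPM (-2.99 ± 0.29, adjusted p = 6.49e-05). Their part in the fall of Rag1 and Rag2 was not tested, nor was that of the other regulators. Spi1, encoding PU.1, rose from 7.15 to 8.9 TPM to 23.9 to 31.6 TPM (1.86 ± 0.18, adjusted p = 6.13e-05) and Ets1 from 1.91 to 3.34 TPM to 11.1 to 15.6 TPM (2.33 ± 0.39, adjusted p = 0.00192), a call lost after rescaling without the 20 most abundant genes (1.88, adjusted p = 0.0595). By 48h 12 of the 17 were lower and 2 higher, against 27.2% and 15.9% of all genes, and 10 and 2 after median-of-ratios scaling (21.9% and 24.6%). Among those with a mean of at least 1 TPM, the falls were largest on the deposited scale in Myb (-5.13 ± 0.24), Bcl11a (-3.69 ± 0.25) and the E2A gene Tcf3 (-3.27 ± 0.21), each of which acts in early B cell development. Ikzf3, with a mean of 0.292 TPM, fell by 2.91 there and by 5.75 after rescaling without the 20 most abundant genes. Gfi1b stood at 2.07 to 3.42 TPM at 48h (-0.49 against 0h, adjusted p = 0.206, limma).

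**Figure D3:**
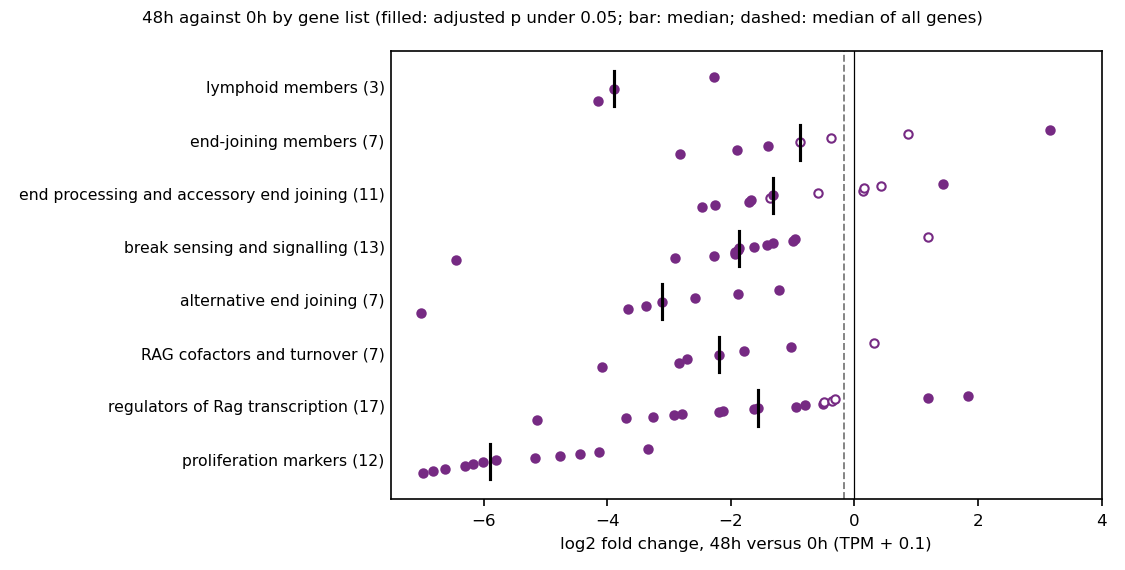
Log2 fold change at 48h against 0h (x axis, TPM + 0.1 scale) of each gene tested, by list, with the number of genes in brackets; points are genes, filled where adjusted p is under 0.05 (limma), the bar is the list's median and the dashed line the median of all genes, -0.18. The lymphoid members sit left of -2, the end-joining members spread from -2.83 to 3.16, and the median of the proliferation markers lies furthest left. Rag1 and Dntt are listed at 0 in every 48h library and Rag2 at no more than 0.07 TPM. The pseudocount therefore sets how far left these genes lie, and the axis does not show whether they or the proliferation markers fell more.

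Among the 9328 genes with a mean of at least 1 TPM, the patterns most like Rag1 over the 12 libraries were those of 2900026A02Rik (Pearson r = 0.976 on the log2 scale), the homeobox gene Hoxb8 (0.966) and the adaptor gene Grb7 (0.95). For Rag2 they were Jhy (0.958), 2900026A02Rik (0.943) and Hoxb8 (0.941). Hoxb8 went from 17.4 to 22.3 TPM at 0h to 3.48 to 4.65 TPM at 1h and was still at 2.2 to 3.89 TPM at 48h, where Rag1 was at 0. For Dntt the most alike were Rabepk (0.954), the replication factor C gene Rfc2 (0.919) and Mterf4 (0.913), none of which changed at 1h past the test (adjusted p = 0.186, 0.8 and 0.92). Rfc2 stood at 11.9 to 16.4 TPM at 0h and 1h and at 2.3 to 5.33 TPM later. The points share their libraries and their 4 time points, so any gene of the same order of times scores high.

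The genes beside Rag1 and Rag2, which lie next to each other and point towards each other on chromosome 2, are given for comparison. Of 5 neighbours tested, none was lower at 1h, 12h or 48h by limma, on the deposited or the median-of-ratios scale (0 at an unadjusted p under 0.05 on the deposited scale), where 1.41%, 7.82% and 27.2% of all genes were lower, so a count of 0 in 5 lies near the share of all genes at 1h and 12h. At 1h 3 were higher on the deposited scale, against 24.1% of all genes (0 after median-of-ratios scaling, against 5.43%). At 12h 3 were higher, against 22.3% (2 after that scaling, against 16%). At 48h 1 was higher, against 15.9% (1 after that scaling, against 24.6%). Traf6, a signalling adaptor, stood at 1.4 to 2.13 TPM at 0h and 1.41 to 1.68 TPM at 48h. Commd9 stood at 1.33 to 2.84 TPM at 0h, 4.8 to 5.99 TPM at 12h (adjusted p = 0.004175, limma) and 2.51 to 2.75 TPM at 48h. Prr5l was listed at 0 in every 0h library and stood at 1.18 to 1.98 TPM at 48h (adjusted p = 7.53e-06). B230118H07Rik, whose annotated exons share 80 bases with Rag1 and 208 bases with Rag2, had a mean of 0.0767 TPM and was below the filter, so it was not tested. It stood at 0.46, 0 and 0.16 TPM at 0h, at 0, 0.12 and 0.1 TPM at 1h, at 0 in every 12h library and at 0, 0 and 0.08 TPM at 48h, so its group means were highest at 0h and at 0 at 12h, as those of Rag2 were.

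Promoter contacts were read from the merged PCHi-C lists, in which 2 libraries per time point were pooled before interactions were called, so these counts have no replicate error and no test. A contact is a restriction fragment listed with the captured fragment (bait) that holds a start site of the gene, and a fragment missing from a list was not called, which does not show it to be absent. The 0h list gives scores of at least 5, whereas the later lists hold whole numbers of no named unit, so whether all 4 were cut at the same score could not be checked, and each comparison of 0h with a later count rests on that. The lists held 138769, 137836, 131598 and 144072 interactions from 0h to 48h. The median over 23193 baited genes was 5 contacts at each time. From 0h to 48h the lists held 7, 2, 1 and 0 contacts of Rag2, 4, 4, 3 and 1 of Rag1 (on a bait shared with B230118H07Rik), and 9, 7, 7 and 3 of Dntt. Thus the list of Rag2 shortened by 1h, as did its RNA, whereas that of Rag1 kept its length at 1h while its RNA had fallen 29.7-fold. The Rag1 partners themselves were not the same at 1h. Of those at 0h, chr2:101593249-101597996 and chr2:101600345-101601309 were not listed at 1h. Rag1 partners in B230118H07Rik numbered 3 at 0h and 1 at 1h. All 3 lymphoid genes, and Xrcc6, Prkdc and Dclre1c, had at most 1 contact at 48h for every 2 at 0h (6 of 10 members, against 24.7% of baited genes with a contact at 0h). At least 2 times as many were listed for Xrcc4 and Lig4 (2 of 10, against 17.1%). The 0h scores of Rag2 contacts were 5.32 to 7.65, close to the calling threshold of 5, and none reached 10.

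At 0h, 3 fragments were partners of both Rag baits. A pair of adjoining fragments, chr2:101597997-101600344 and chr2:101600345-101601309, lay 25.1 to 26.7 kb from the Rag2 bait and 50.3 to 51.9 kb from the Rag1 bait, inside the annotated B230118H07Rik gene. The third held the start site of Commd9, 236 kb from the Rag1 bait and 261 kb from the Rag2 bait. At 1h the shared partners numbered 1 (the Prr5l bait), and at 12h and 48h there was none. The fragment next to the pair, chr2:101593249-101597996, was the partner of Rag1 left at 48h, and counting a contact as kept when a fragment within 10 kb was listed at 48h gave 3 of the 4 Rag1 contacts of 0h in place of 1, and 0 of 7 for Rag2. The Rag1 bait also holds a start site of B230118H07Rik, so its contacts cannot be assigned to either gene alone. At 0h 3 of its 4 partners lay in B230118H07Rik, as did the 1 listed at 48h. Other baits in contact with Rag2 were those of Traf6 (1h) and the noncoding gene Gm13919 (0h and 12h). Dntt kept 2 contacts at all 4 times, the fragment 11.2 kb away and the bait of the cyclin gene Ccnj 205 kb away, and up to 5 of its partners at one time lay in Cc2d2b. Ccnj stood at 0.26 to 0.46 TPM at 0h and 0.35 to 0.49 TPM at 48h.

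Among the end-joining genes the number of contacts did not always move as the RNA did. Dclre1c had 5, 5, 1 and 2 contacts while its RNA rose, and its lasting partner was the bait of Acbd7 and Rpp38, 87.7 kb away. Xrcc5 had 25, 26, 30 and 26 contacts, 19 of the 25 at 0h listed again at 48h, while its RNA fell 8.46-fold. Lig4, on a bait shared with Abhd13, had 6, 7, 8 and 12, and all 6 of 0h were listed at 48h. Nhej1 had 42, 56, 50 and 39 over 2 baits, 1 of them an 80.6 kb fragment shared with Slc23a3. Prkdc, on a bait shared with Mcm4, had 7, 5, 3 and 2. For Xrcc6 the count (14, 7, 4 and 6) rests on start sites of minor transcripts, 1 of them on the bait of Desi1, since the start site of its longest transcript lay on no bait. Xrcc4, on a bait shared with Tmem167, had 12, 14, 33 and 60 contacts, more than 98.7% of baited genes at 48h. Of its 60 partners at 48h, 30 overlapped Xrcc4's own long gene body and 18 overlapped Vcan; all 60 lay 166 to 429 kb from the bait. The Vcan bait itself, 347 kb away, was listed at all 4 times. Vcan, which encodes a matrix proteoglycan and was picked after these contacts were seen, stood at 0.01 to 0.02 TPM at 0h and 0.713 ± 0.357 TPM (SD) at 48h (2.72 ± 0.48, adjusted p = 0.000643), and Gm4117, an antisense gene that overlaps Xrcc4 and extends beyond it, at 0.03 to 0.05 and 0.78 to 0.97 TPM (2.83 ± 0.40, adjusted p = 0.000134). Tmem167 stood at 0.81 to 1.44 TPM at 0h and 1.14 to 1.68 TPM at 48h (0.46 ± 0.24, adjusted p = 0.14).

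**Figure D4:**
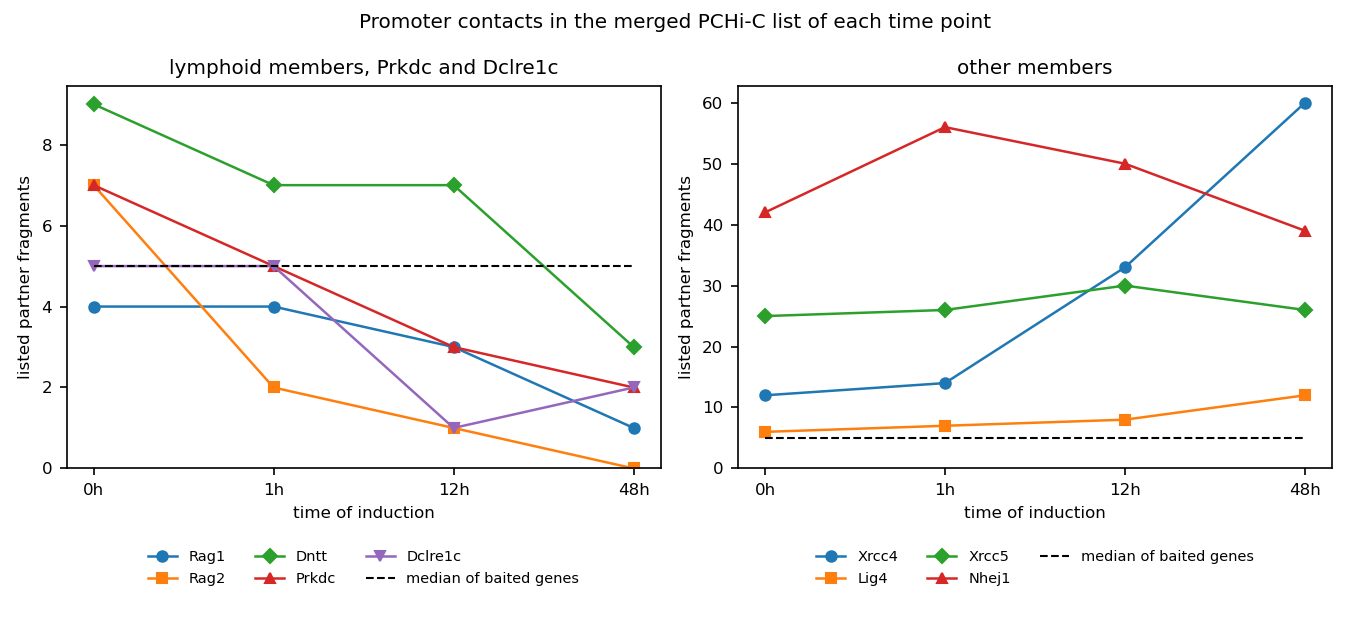
Number of partner fragments listed for the bait or baits of each gene (y axis, starting at 0) in the merged PCHi-C list of each time point (x axis), 1 line per gene, with the median of baited genes dashed at 5; Xrcc6 is not drawn. Rag2 goes from 7 to 0 and Dntt from 9 to 3, while Xrcc4 goes from 12 to 60.

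**Figure D5:**
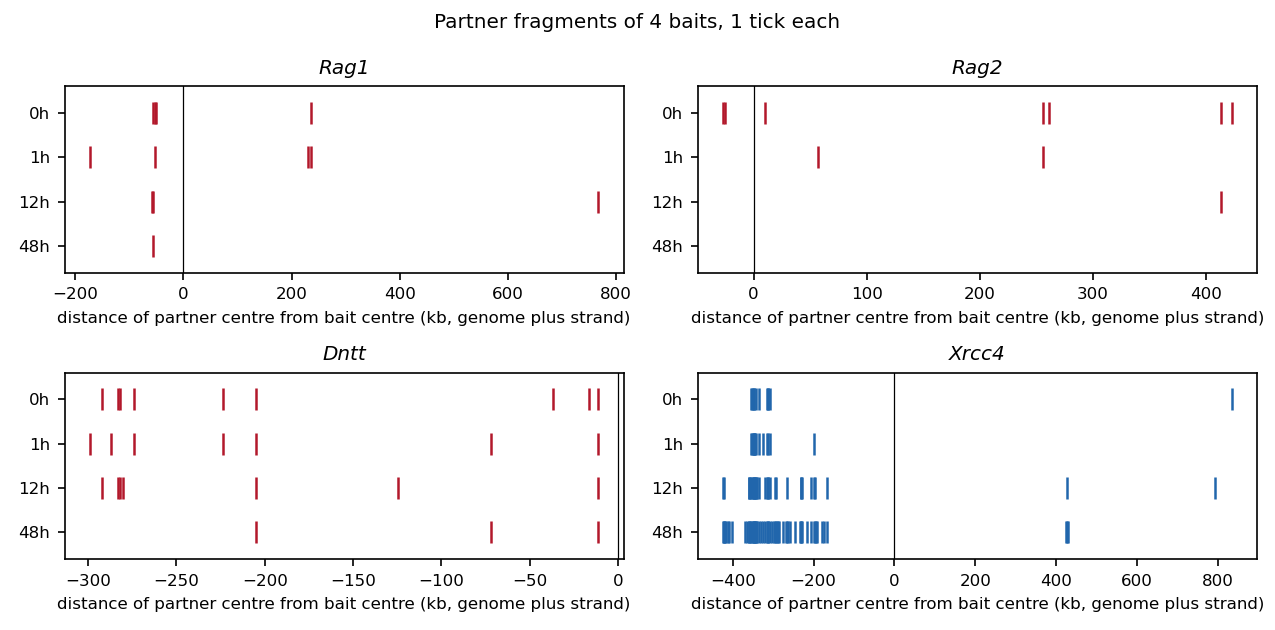
Distance of each partner fragment's centre from the bait's centre in kb (x axis, increasing along the plus strand) at each time point (y axis) for Rag1, Rag2, Dntt and Xrcc4, 1 tick per fragment. The ticks thin out for the lymphoid genes and fill the stretch from -423 to -166 kb beside Xrcc4 at 48h.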

How the data were processed

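RNA-seq: per the labels and the study's methods, the authors trimmed reads with Trim Galore 0.6.2, aligned them with HISAT2 2.1.0 to mm10 and deposited TPM per gene from RSEM; they tested counts with DESeq2, which are not used here. PCHi-C: the authors merged 2 libraries per time point and called interactions with CHiCAGO (score of at least 5). The deposited 0h list gives that score; the other lists hold whole numbers of no named unit and only their fragment pairs were used. Hi-C was not analysed here.

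TPM were tested with limma 3.58.1 (R 4.3.3) on log2(TPM + 0.1), 1 fit of 4 time points with the variance trend, over 16415 genes with a mean of at least 0.1 TPM, Benjamini-Hochberg adjusted, called under 0.05. On simulated libraries, comparing 48h with 0h, the fit called 36%, 68%, 82% and 96% of log2 changes of 1, 1.5, 2 and 3. It called 0.08% of unchanged genes. Changes were planted only in genes of roughly 1 TPM or more at 0h, so these shares do not cover lower members such as Dntt, Lig4 and Nhej1. Overlaps and start sites came from GENCODE M21 (GRCm38), promoters from RefSeq. The lists held 56 genes, of which Shld3 was not matched by name in the table, and 7 names of Rag neighbours, of which Iftap was not. Whether the table holds either gene under another name was not checked. Named genes were all members, up to 3 genes per list with the largest called change at 48h and a mean of at least 1 TPM, the 3 genes most like each lymphoid member, genes that overlap a member and genes whose bait contacts a lymphoid member. Erythroid markers summed to at most 0.93 TPM in any library. The members and lists were chosen with earlier results of these data known. Alternatives were pseudocounts of 0.01 and 1, other filters and scalings, no trend, fewer libraries and a replicate block.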

Additional observations from a re-analysis of the deposited data

How the results depend on the processing

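Of 1013 values recomputed under the alternatives, 926 kept their direction and their side of the threshold or stayed within 1.5 times. Filtering at a mean of 1 TPM left most members untested, and the members lower fell to 0 at 1h, 2 at 12h and 2 at 48h; between neighbouring times 2 were lower at each step. Median-of-ratios scaling and rescaling without the 20 most abundant genes each gave 2 members higher at 48h, 2 lower between 1h and 12h, and 3 pathway genes higher at 12h; the pathway genes higher at 1h were 3 and 2. Median-of-ratios scaling also gave 2 members higher between 12h and 48h (0 on the deposited scale). The members lower between 1h and 12h were Xrcc5 and Xrcc6 under median-of-ratios and Dntt and Xrcc6 after rescaling, and again 2, Xrcc5 and Xrcc6, with no filter and with only the 6 libraries compared. Without the variance trend 2 (Prkdc and Xrcc5) were lower between 12h and 48h. Ets1 at 1h lost its call after rescaling.

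At 1h, changes that did not pass the test turned sign: Xrcc5 was -0.53 and -0.38, and Xrcc6 -0.48 and -0.32, under the 2 scalings, Prkdc was -0.12 under median-of-ratios, and Nhej1 was 0.44 with a pseudocount of 0.01 and 0.0395 after rescaling. Leaving out 1 library moved Dntt at 1h between -0.57 and 0.45, Lig4 between -0.39 and 0.25 at 1h and -0.47 and 0.30 at 12h, Nhej1 between -1.12 and 0.46 at 1h and -0.17 and 1.42 at 12h, Xrcc5 at 1h between -0.0505 and 0.24 and Xrcc6 at 1h between -0.091 and 0.33. It gave 1 to 2 members higher at 48h, 3 to 5 lower at 12h, 1 to 4 lower between 1h and 12h, 1 to 2 lower between 12h and 48h, and 8 to 14 pathway genes higher at 1h and 3 to 6 at 12h. The causes were not tested.

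The replicate numbers were not taken to pair the samples, since only 11 of 18 same-numbered pairs had deviations that correlated above 0.1 (from -0.04 to 0.42). Of the 18 pairs, 17 correlated above 0. All 6 pairs of replicate 3 exceeded 0.1 and 0 of 6 of replicate 2, and 7 of 12 libraries correlated best with their own number. With the replicate block 2 members were lower and 1 higher at 1h, 5 and 1 at 12h, and 6 and 1 at 48h. Between neighbouring times it gave 3 lower from 1h to 12h (Prkdc, Xrcc5 and Xrcc6) in place of 4, and 1 from 12h to 48h.

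A 0h score of at least 10 left 1 contact of Rag1, 0 of Rag2, 0 of Dntt, 9 of Xrcc5, 1 of Xrcc6, 2 of Prkdc, 2 of Lig4, 0 of Dclre1c, 2 of Nhej1 and 1 of Xrcc4. Counting fragments within 10 kb as the same, 3 contacts of Rag1, 10 of Xrcc6, 2 of Prkdc and 37 of Nhej1 at 0h were listed at 48h. With the longest transcript's start site alone, Xrcc6 had 0 contacts at each time and Nhej1 had 19, 19, 17 and 16. TPM carry no read depth, so counting error could not be given for any gene.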
